A study of Mus musculus with 4 samples.

Results

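Dazl, Ddx4, Mael, Sycp1, Sycp3, Stk31, Tdrd1, Hormad1, Tex101 and Slc25a31 are genes of the germ cell programme that are known as targets of silencing through Max and its partner Mga in embryonic stem cells (ESCs). They were chosen by name, with earlier results of these data known. They are 10 of the 37310 genes of the GENCODE M1 annotation and of its 22380 protein-coding genes. Their promoters were examined in the peak lists of a Bio-Myc ChIP-Seq and a Max ChIP-Seq of mouse E14 ESCs. The Bio-Myc ChIP used 1 stable clone of BirA-expressing E14 cells in which Myc with an N-terminal biotin tag is driven by the EF1α promoter, and the chromatin was captured on streptavidin beads. The Max ChIP used parental wild-type E14 cells and an anti-Max antibody. The cells of the mock ChIP, the control of the Bio-Myc list, are parental wild-type cells in the sample description and BirA cells without a tagged protein in the methods, and the control of the Max list was an IgG ChIP. Both controls were used by the authors in calling the peaks and were not analysed here on their own. Each list comes from 1 library and its read depth is unknown, so no count or score given here has an error between cultures and no test between the ChIPs was possible. Counts over the 10 genes are therefore set beside the share of all protein-coding genes. Mga was not immunoprecipitated and transcript levels were not part of these files, so the silencing of the genes was not measured.

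Max belongs to the helix-loop-helix transcription factors and binds DNA as a dimer, and its dimers recognise the E-box, CACGTG. Myc needs Max as a partner to bind DNA. Mga, a large protein with a T-box domain as well as a helix-loop-helix domain, also pairs with Max, and the Mga-Max dimer is part of a non-canonical Polycomb complex, PRC1.6, together with E2f6, Tfdp1, L3mbtl2 and Pcgf6. In ESCs this complex is known as a repressor of germ cell genes. A Max peak can therefore come from Max paired with Myc, with Mga or with another partner, whereas a Bio-Myc peak reports the tagged Myc.

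The sequences next to the start sites are shown because 7 of the 10 promoters hold an E-box within 150 bp of the outermost transcription start site (TSS), the 5′-most annotated start of the gene. They are from the mm9 (NCBIM37) genome, run 5′ to 3′ along the strand of the gene and end at the base before that TSS, with E-boxes in capitals. The stretches are 150 bases long for 8 genes and lie upstream of the annotated gene.
Ddx4 (chr13:113442519-113442668, minus strand): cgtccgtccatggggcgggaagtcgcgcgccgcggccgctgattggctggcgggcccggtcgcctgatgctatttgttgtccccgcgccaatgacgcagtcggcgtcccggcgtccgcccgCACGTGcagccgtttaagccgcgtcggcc
Stk31 (chr6:49345453-49345602, plus strand): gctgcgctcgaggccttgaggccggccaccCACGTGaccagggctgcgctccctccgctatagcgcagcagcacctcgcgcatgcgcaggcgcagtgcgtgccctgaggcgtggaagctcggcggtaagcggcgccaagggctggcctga
Tdrd1 (chr19:56900549-56900698, plus strand): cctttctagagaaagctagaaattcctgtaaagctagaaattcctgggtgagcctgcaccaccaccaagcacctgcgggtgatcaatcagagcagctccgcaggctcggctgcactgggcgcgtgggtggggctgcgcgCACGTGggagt
Hormad1 (chr3:95363449-95363598, plus strand): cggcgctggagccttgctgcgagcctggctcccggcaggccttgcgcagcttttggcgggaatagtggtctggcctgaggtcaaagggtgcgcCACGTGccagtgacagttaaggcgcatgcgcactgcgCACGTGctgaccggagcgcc
Slc25a31 (chr3:40512627-40512776, plus strand): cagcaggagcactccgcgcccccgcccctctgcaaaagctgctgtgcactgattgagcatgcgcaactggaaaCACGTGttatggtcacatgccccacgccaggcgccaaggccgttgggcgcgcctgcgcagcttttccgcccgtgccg
Sycp1 (chr3:102740024-102740173, minus strand): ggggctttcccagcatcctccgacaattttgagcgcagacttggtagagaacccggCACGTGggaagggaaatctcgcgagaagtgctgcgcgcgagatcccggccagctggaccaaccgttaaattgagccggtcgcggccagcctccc
Sycp3 (chr10:87922164-87922313, plus strand): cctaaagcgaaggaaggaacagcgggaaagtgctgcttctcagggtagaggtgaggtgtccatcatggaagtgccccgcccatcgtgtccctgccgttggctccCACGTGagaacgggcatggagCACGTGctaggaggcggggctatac
Tex101 (chr7:25457070-25457219, minus strand): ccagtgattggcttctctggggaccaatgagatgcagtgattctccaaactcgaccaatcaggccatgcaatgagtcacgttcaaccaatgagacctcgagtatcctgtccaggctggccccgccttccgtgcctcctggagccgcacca
The E-box of Mael lies farther upstream, and 250 bases are shown.
Mael (chr1:168168876-168169125, minus strand): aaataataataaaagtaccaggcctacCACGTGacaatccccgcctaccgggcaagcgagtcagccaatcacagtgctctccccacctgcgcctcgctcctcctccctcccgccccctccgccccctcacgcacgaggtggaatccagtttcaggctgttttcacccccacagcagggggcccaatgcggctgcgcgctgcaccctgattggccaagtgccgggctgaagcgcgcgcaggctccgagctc
Dazl has no E-box upstream within its Max peak, and the pair under the peak lies in an intron, 487 to 516 bp downstream of the outermost TSS.
Dazl (chr17:50432408-50432437, minus strand): gcCACGTGcacggcctgggcgtCACGTGac
The printed stretch of Tex101 holds no capitals, since no E-box lies under its Max peak.

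All 10 promoters, taken as 1 kb to either side of any TSS, carried a Max peak, against 34.8% of all protein-coding genes, and each Max peak covered a TSS, as was so for 30.0% of the protein-coding genes. Each gene had exactly 1 Max peak in this window and the same 1 peak within 5 kb, a distance within which 38.6% of the protein-coding genes had a Max peak. The score of a peak is 10 times the negative log10 of its p-value in MACS, with 80 as the lowest score of both lists, and it ranks peaks within a list rather than measuring occupancy. The Max scores of the 10 genes ran from 129.7 at Tex101 to 1310 at Ddx4, with a median of 737, where the median of all 7569 Max peaks at protein-coding promoters was 181. Tex101 stood apart at the low end, and the next lowest score was 491, at Dazl.

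Among the RNA-binding proteins of germ cells, Ddx4, the Vasa helicase of the germ line, had a Max peak at chr13:113441862-113443093 with a score of 1310, and 99.4% of the Max peaks at protein-coding promoters scored lower. Dazl, a regulator of translation in germ cells, had a Max peak at chr17:50432027-50433318 with a score of 491, above 89.5% of those peaks. Its centre was 252 bp downstream of the outermost TSS, towards the intronic E-boxes, and it was the widest Max peak of the 10 at 1292 bp.

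Mael, Tdrd1 and Stk31 encode a piRNA pathway protein, a Tudor protein that binds Piwi proteins and a germ cell protein with a Tudor and a kinase-like domain. The Max peak of Stk31 at chr6:49344979-49346058 scored 1072, that of Tdrd1 at chr19:56900325-56901213 scored 749 and that of Mael at chr1:168168259-168169377 scored 688. All were in the upper part of the promoter peaks, with 98.8%, 96.1% and 95.2% of those peaks lower in the same order.

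Sycp1 and Sycp3 build the synaptonemal complex, which holds homologous chromosomes together in meiosis, and Hormad1 sits on the meiotic chromosome axis. The Max peak of Hormad1 at chr3:95363056-95364007 scored 945 and that of Sycp1 at chr3:102739020-102740248 scored 909. The Max peak of Sycp3 at chr10:87921882-87922728 scored 575, above 92.6% of the promoter peaks. Slc25a31, the ADP/ATP carrier of male germ cells, had a Max peak at chr3:40512311-40513473 with a score of 726. Tex101, a membrane-anchored glycoprotein of germ cells, had the lowest score and the narrowest Max peak of the 10, 759 bp at chr7:25456698-25457456, and 30.1% of the promoter peaks scored lower.

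**Figure D1:**
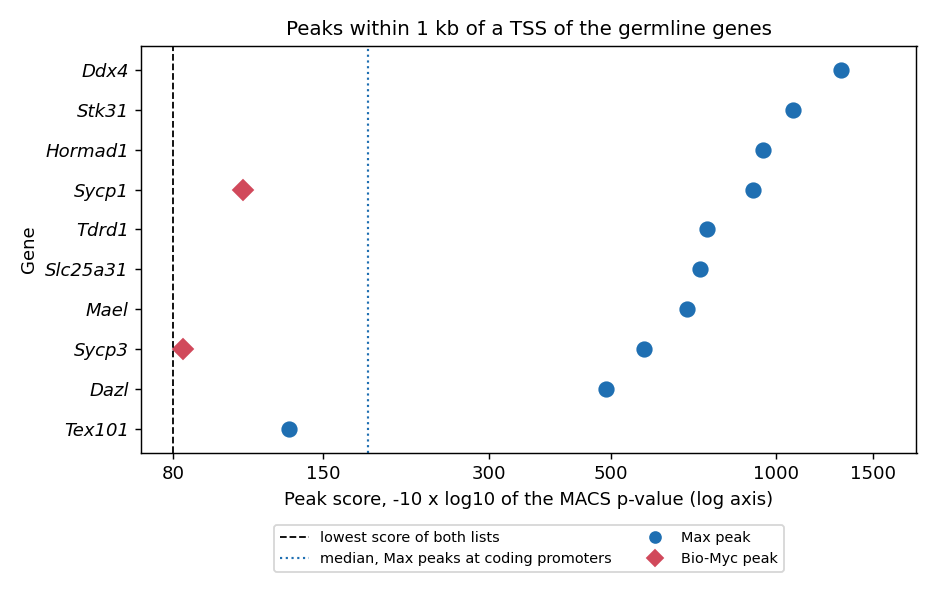
Scores of the peaks within 1 kb of a TSS of each germline gene, on a log axis as 10 times the negative log10 of the p-value; circles are Max peaks, diamonds Bio-Myc peaks, the dashed line is the lowest score of both lists (80) and the dotted line the median of Max peaks at protein-coding promoters (181). All Max circles but that of Tex101 lie at 491 or more, and the 2 Bio-Myc diamonds, at Sycp1 and Sycp3, lie at 107 and 83.2; scores of the lists are not on a common scale.

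Bio-Myc peaks were found at the promoters of 2 of the 10 genes, Sycp1 and Sycp3, against 14.6% of all protein-coding genes. The Bio-Myc peak of Sycp1, at chr3:102739178-102740105, scored 107, and 29.9% of the Bio-Myc peaks at protein-coding promoters scored lower. The Bio-Myc peak of Sycp3, at chr10:87922077-87922765, scored 83.2, close to the limit of the list, and 3.41% of those peaks scored lower. Both were low in a list whose promoter peaks had a median score of 138, and neither passed a limit of 1e-11 on the p-value. No other gene of the 10 had a Bio-Myc peak within 5 kb of a TSS, a distance within which 16.6% of the protein-coding genes had one. The nearest Bio-Myc peak was 76.4 kb from a TSS at Hormad1, 131 kb at Stk31, 154 kb at Tex101, 235 kb at Mael, 277 kb at Tdrd1, 783 kb at Slc25a31, 966 kb at Ddx4 and 1361 kb at Dazl.

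Max without Bio-Myc was thus the state of 8 of the 10 genes, against 22.1% of all protein-coding genes, and joint binding that of 2, against 12.7%. With the Max list cut to the size of the Bio-Myc list, Max alone was the state of 7 of the 10 genes and of 7.16% of the protein-coding genes. Among Max-bound protein-coding genes the share with a Bio-Myc peak was 36.4%, and it was higher at higher Max scores up to a score of 1000. It was 17.3% (95% Wilson interval 15.9 to 18.7%) where the strongest Max peak scored 80 to 150, 54.5% (51.8 to 57.2%) at 300 to 500 and 71.1% (63.4 to 77.8%) at 1000 or more. The intervals cover counting error only. At a Max score of 500 or more, 614 of 905 genes had a Bio-Myc peak (67.8%, 64.7 to 70.8%), and of the 8 germline genes in that range 2 had one. With an E-box under the strongest Max peak as well, which all 8 have, the share was 466 of 619 genes (75.3%, 71.7 to 78.5%). No test of the difference was made, since the genes were chosen with earlier results of these data known. The Bio-Myc list holds 3962 peaks and the Max list 11570, and the part of the depth of the libraries in Max peaks without Bio-Myc was not tested. The ChIPs also differed in cells, capture and control, which cannot be told apart from the factor. Max alone here means Max without a peak of the tagged Myc. Endogenous Myc and NMyc were not measured in these lists.

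**Figure D2:**
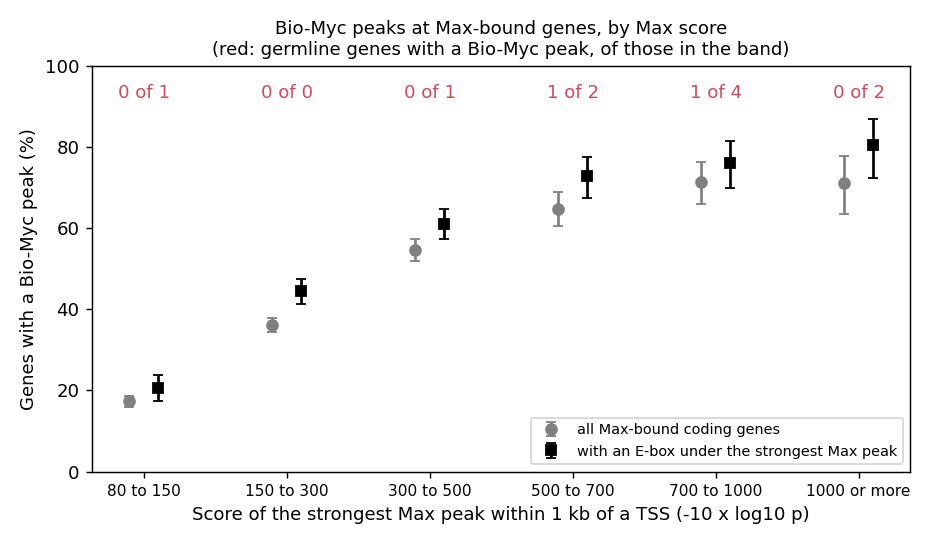
Share of Max-bound protein-coding genes with a Bio-Myc peak within 1 kb of a TSS (vertical axis, percent) by the score of their strongest Max peak; grey circles are all genes, black squares those with an E-box under that peak, and bars are 95% Wilson intervals. The red numbers count the germline genes with a Bio-Myc peak in each score range, 1 of 2 at 500 to 700, 1 of 4 at 700 to 1000 and 0 of 2 at 1000 or more, where the share of all genes was 64.8%, 71.3% and 71.1%.

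The Max peaks were centred close to the start sites. Between the peak centre and the outermost TSS lay 8 to 389 bp, with a median of 69 bp. The widths ran from 759 to 1292 bp with a median of 1100 bp, where protein-coding genes with a Max score of 500 or more had a median of 1405 bp. No gene other than the germline gene itself had a TSS within 1 kb of their TSSs. The nearest start site of another gene was 4019 bp away at Tdrd1 and 53488 bp away at Dazl, and the other genes lay between.

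E-boxes lay under the Max peaks of 9 of the 10 genes, against 36.6% of all Max peaks at protein-coding promoters. In the central 200 bp of the peak, a window of 1 length for all, 5 of the 10 genes had one, against 17.2%. Max peaks of higher score are wider and hold an E-box more often. It was under the strongest Max peak of 68.4% (65.3 to 71.3%) of the protein-coding genes with a score of 500 or more, where 8 of 8 germline genes had one, and in its central 200 bp for 20.8%. The 9 genes had 14 E-boxes in all, and the one nearest to the TSS lay 6 to 489 bp from it, with a median of 72 bp.

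The position of the E-box varied among the genes. It was 6 bp upstream of the outermost TSS in Tdrd1, 24 bp upstream in Ddx4, 72 bp in Slc25a31, 115 bp in Stk31 and 218 bp in Mael. Hormad1 had 2, at 52 and 15 bp upstream, and Sycp3 had 2, at 41 and 20 bp upstream. Sycp1 had 3 E-boxes, 1 at 89 bp upstream and 2 in an intron at 613 and 716 bp downstream. At the genes with joint binding the Bio-Myc peak covered both E-boxes of Sycp3 and the intronic pair of Sycp1, but not the upstream E-box of Sycp1. The base just 5′ of the E-box, read on both strands of the 14 sites, was G in 13 of 28 cases, C in 7, T in 5 and A in 3. These counts were not compared with other E-boxes or with the base composition of the promoters, so a preference for a base was not tested.

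**Figure D3:**
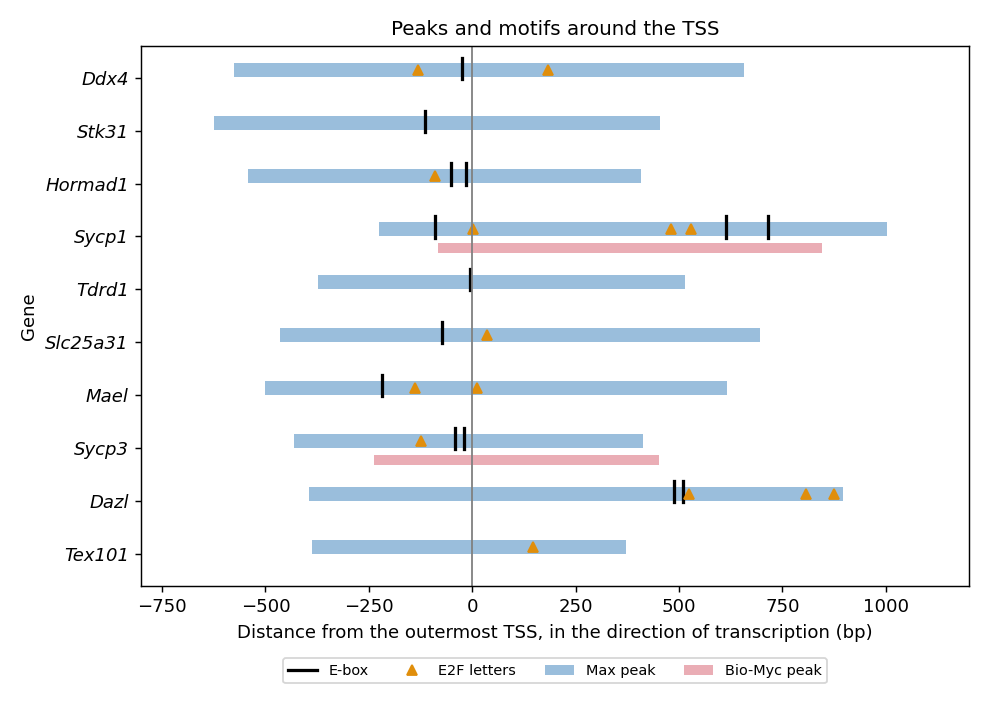
Max peaks (blue bars), Bio-Myc peaks (red bars), E-boxes (black ticks) and the E2F letters (orange triangles) under the Max peak of each germline gene, by distance in bp from the outermost TSS in the direction of transcription. Each blue bar spans the TSS at 0, 8 genes have a black tick upstream of it, Sycp1 also has ticks at 613 and 716 bp downstream, Dazl has its ticks only downstream, at 489 and 509 bp, and Tex101 has none.

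The letters of other factors of the Mga complex were counted on both strands under the same peaks. E2f6 belongs to the E2F family, whose sites contain the letters GCGGGA, and these were found 14 times under the Max peaks of 8 genes, all but Stk31 and Tdrd1. They are frequent at bound promoters: from 500 bp before to 500 bp after the outermost TSS they were in 7 of the 10 germline genes, 68.8% of genes with Max alone and 73.5% (68.2 to 78.3%) of those with Max alone at a score of 500 or more. The distance between the closest E-box and E2F letters was 9 bp in Dazl, 32 bp in Hormad1, 74 bp in Mael, 77 bp in Sycp1 and in Sycp3, 101 bp in Ddx4 and 107 bp in Slc25a31. Each is the smallest distance over all pairs under the peak. These distances were not compared with those at other Max-bound promoters. The T-box letters AGGTGTGA, which stand for the other DNA-binding domain of Mga, occurred under 2 peaks, those of Sycp3 and Slc25a31, at 222 bp upstream and 671 bp downstream of the TSS. The letters CACGCG, an E-box variant, occurred 12 times under 6 peaks, of which 6 were in Sycp1. Within 500 bp of the outermost TSS the T-box letters were in 1 of the 10 genes, against 3.44% of all protein-coding genes. CACGCG was in 6 of the 10 there. At a Max score of 500 or more it was in 46.4% of genes with Max alone and 62.1% of those with both peaks. CACGTG reads the same on both strands, CACGCG and GCGGGA can overlap where their letters meet, and a match is a description of the sequence, not a bound site.

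In windows of 1 length at all promoters, from 250 bp before to 50 bp after the outermost TSS, the E-box letters were in 8 of the 10 germline genes, against 7.79% of all 22380 protein-coding genes. The share was 11.6% at promoters with Max alone and 18.1% at those with both peaks. At a Max score of 500 or more it was 61 of 291 genes with Max alone (21.0%, 16.7 to 26.0%) and 152 of 614 genes with both (24.8%, 21.5 to 28.3%). The E2F letters were in 6 of the 10 windows, where all protein-coding genes had 24.4% and genes with Max alone at that score 46.0% (40.4 to 51.8%), and in the wider window given above their count lay near the share of genes with Max alone. The T-box letters were in 1 window, against 1.12% of all protein-coding genes, and CACGCG in 3, against 11.7% of all protein-coding genes and 26.1% (21.4 to 31.5%) of those with Max alone at a score of 500 or more. The observed to expected ratio of CpG in the window had a median of 0.76 over the 10 genes, as over all genes with Max alone (0.76), and 0.53 over all protein-coding genes. Within 500 bp of the TSS it was 0.65 to 0.75 in 9 genes and 0.44 in Tex101, the gene with the weakest Max peak and no E-box.

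**Figure D4:**
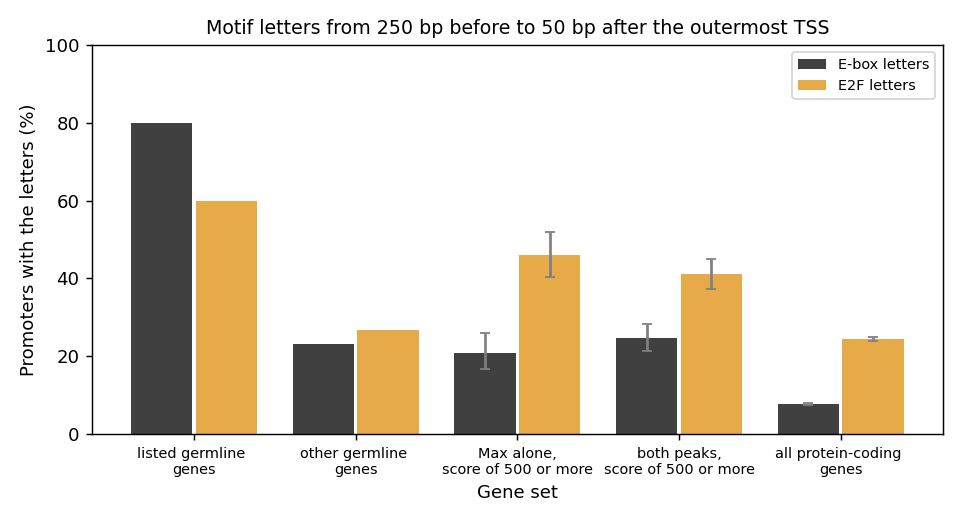
Share of promoters (percent) that hold the E-box letters (dark bars) or the E2F letters (orange bars) from 250 bp before to 50 bp after the outermost TSS, in 5 gene sets; bars in grey are 95% Wilson intervals and are drawn only for sets not chosen by name. The E-box letters were in 8 of the 10 listed germline genes and in 7.79% of all protein-coding genes, and the E2F letters in 6 of 10 and in 24.4%.

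Other genes of the germ cell programme, a list of 62 meiosis, piRNA pathway and germ cell genes of which 56 were found in the annotation by symbol, carried a Max peak in 37 cases (66.1%). Of these, 26 had Max alone and 11 also a Bio-Myc peak, and 19 of the 56 had neither. The list and the 10 genes were both drawn up with results of these data known. Max alone was the state of 46.4% of the 56 genes, against 22.1% of the protein-coding genes. With the Max list cut to the size of the Bio-Myc list these were 16 of 56 genes and 7.16%. The Max scores were lower, with a median of 388 over the 37 bound genes against 737 over the 10, and 196 over all bound protein-coding genes. At a score of 300 or more, 9 of 24 of these genes had a Bio-Myc peak (37.5%) where all Max-bound protein-coding genes had 59.9%, and the listed genes 2 of 9. E-boxes lay under the Max peaks of 22 of the 37 bound genes (59.5%), against 38.6% of all Max-bound protein-coding genes. From 250 bp before to 50 bp after the outermost TSS, the E-box letters were in 13 of the 56 genes (23.2%), against 8 of the 10 listed genes.

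The 12 highest Max scores of that list included 8 promoters with Max alone. They were Tdrkh (1613), a Tudor protein of the piRNA pathway, Boll (1157), a relative of Dazl, Mei1 (981), needed for meiotic recombination, Mov10l1 (854), the helicase of piRNA production, Tex12 (762) and Sycp2 (612), components of the synaptonemal complex, Cpeb1 (613), a regulator of translation, and Rnf17 (572), a Tudor protein. The remaining 4 had both peaks. Stag3, the meiotic cohesin subunit, scored 1425 for Max and 83.6 for Bio-Myc, and Syce2, a synaptonemal complex protein, 1235 and 105. Ddx25, a testis helicase, scored 651 and 155, and D1Pas1, another helicase of the testis, 620.0 and 198. At Ddx25 the Max peak covered a TSS, while the nearest Bio-Myc peak lay 846 bp from one. D1Pas1 has close relatives in the genome and the authors kept only uniquely mapped reads, and the effect of this on its values was not tested.

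**Figure D5:**
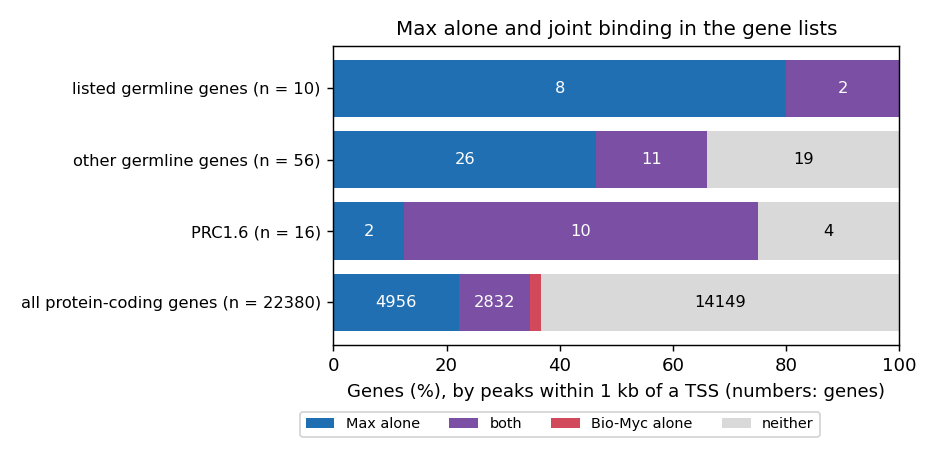
Genes by the peaks within 1 kb of a TSS, as a share of each list (horizontal axis, percent), with the number of genes in each segment. Max alone takes 8 of the 10 listed germline genes, 26 of 56 other germline genes, 2 of 16 PRC1.6 genes and 4956 of 22380 protein-coding genes.

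The genes that encode PRC1.6 itself were examined in the same way. Of the 16 genes, 12 carried a Max peak, against 34.8% of the protein-coding genes, 10 carried both peaks, against 12.7%, and 2 had Max alone, against 22.1%, E2f6 (Max score 964) and Hdac2 (1601), a histone deacetylase. The gene of Mga scored 904 for Max and 101 for Bio-Myc, and the gene of Max 384 and 171. The subunit genes L3mbtl2, Pcgf6, Ring1 and Rybp scored 129.7, 317, 307 and 327 for Max and 173, 155, 83.8 and 266 for Bio-Myc, in that order. Tfdp1, the partner of E2f6, scored 1281 and 654, Cbx3, a heterochromatin protein, 719 and 563, Wdr5 256 and 119, and Ehmt2, a histone methyltransferase, 198 and 124. The genes Rnf2, Yaf2, Hdac1 and Ehmt1 had neither peak. At a p-value of 1e-15 or lower in both lists, 6 of the 11 genes that still had a Max peak had Max alone. At that limit 22.6% of all protein-coding genes had a Max peak and 16.8% had Max alone, so most Max-bound genes had Max alone.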

How the data were processed

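The authors sequenced the 4 ChIP libraries on an Illumina HiScanSQ, made base calls with CASAVA 1.8 and aligned reads to mm9 with Bowtie 0.12.7, keeping unique hits with at most 2 mismatches and 1 copy of redundant reads. Peaks were those of MACS 1.4.1 against the mock or IgG ChIP, with a p-value limit of 1e-08. The deposited lists give for each peak a score, the negative log10 of the p-value times 10. Such a limit ties the number of peaks to the read depth, which is unknown, and unique hits leave out repeats. The Bio-Myc and Max lists, 1 library each, were used.

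A gene was bound when a peak overlapped, by at least 1 bp, the region within 1 kb of any GENCODE M1 TSS. Joint binding needed a peak of each list by this rule, and the peaks did not have to overlap each other. Motifs were counted on the mm9 sequence, and coordinates are 1-based. Shares have 95% Wilson intervals. Named were the 10 genes, the 12 highest-scoring Max-bound genes of the other germline list and the PRC1.6 list. The genes and lists were chosen with earlier results of these data known. Alternatives were other windows and TSSs, stricter p-values, lists of equal size and the central part of peaks. The tools were samtools 1.23.1, pysam 0.24.0, scipy 1.17.1, numpy 2.4.6 and matplotlib 3.10.9 in Python 3.11.15, and 8 of 8 steps returned the known answers on simulated data.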

Additional observations from a re-analysis of the deposited data

How the results depend on the processing

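No alternative reversed a value. Of 112 alternatives, 85 gave a count within 1.5 times that reported, a share within its Wilson interval or the same score. These include all 20 on the Max scores of the 10 genes, which could not change. They altered only the window, and each gene had the same 1 Max peak, covering a TSS, in every window. Among the 85, Max alone ranged from 7 to 10 of the 10 genes, and other germline genes with a Max peak fell to 25 with lists of equal size. The number of the 10 genes with a Bio-Myc peak, and with both peaks, fell from 2 to 0 at a p-value of 1e-11 and at 1e-15, because the scores of both peaks lie under those limits. E-boxes under Max peaks went from 9 to 5 genes in the central 200 bp. Other germline genes with Max alone went from 26 to 16 with the Max list cut to the size of the Bio-Myc list, and PRC1.6 genes with Max alone from 2 to 4 at 1e-11 and 6 at 1e-15. The share of protein-coding genes with a Max peak, 34.8%, was 30.0% with the TSS itself, 33.7% within 500 bp, 38.6% within 5 kb, 36.3% from 3 kb upstream to 2 kb downstream, 32.2% with the outermost TSS, 28.8% at 1e-11, 22.6% at 1e-15, 15.5% with lists of equal size and 23.7% over all annotated genes. In the same order the share with Max alone, 22.1%, was 19.0%, 21.5%, 24.2%, 23.1%, 20.5%, 20.0%, 16.8%, 7.16% and 15.0%. The share with Bio-Myc at a Max score of 300 or more, 59.9%, was 62.9% without chromosomes 8, X, Y and M, an alternative chosen after seeing the data. Without these chromosomes 106 of 149 Max-bound genes remained at a Max score of 1000 or more, and 2559 of 2722 at 80 to 150. Tfdp1 (Max score 1281) and Syce2 (1235) lie on chromosome 8, and the effect of the chromosome on their scores was not tested. The depth of the libraries is unknown and limits every absence of a peak. No paired analysis was possible because each ChIP has 1 library and no value comes from a test.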

Other observations

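Ranked by the score of the strongest Max peak, with gene models named only by a Gm number and chromosomes 8, X, Y and M left out, 4359 protein-coding genes had a Max peak and no Bio-Myc peak within 1 kb of a TSS. The 25 highest of these 4359 genes, a cutoff chosen after the values were seen, held 6 of the 31 ranked genes of both germline lists. They were Ddx4, Stk31, Hormad1, Tdrkh, Boll and Mei1. The PRC1.6 genes Hdac2 and E2f6 were also among the 25. The highest was Fbxo46 with a score of 2075. The other genes among the 25, Fbxo46 included, are in neither germline list nor the PRC1.6 list. Of these, Dmrtc2 and Lypd4 (1139), 1810031K17Rik and Fam134a (1127), Anapc11 and Thoc4 (1016), and Mesdc1 and Mesdc2 (998) had equal scores in pairs. Each has another coding TSS within 1 kb, so 1 peak can stand for both genes of a pair. The count of germline genes depends on what was left out of the ranking. Among all 4956 protein-coding genes with Max alone, only Tdrkh (rank 16), Hdac2 (17) and Ddx4 (21) of the germline and PRC1.6 genes named stayed in the highest 25. Boll ranked 26, Stk31 32, Mei1 48, E2f6 51 and Hormad1 53.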
